A study of Mus musculus with 17 samples.

Results

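Histone H3.3 was mapped by ChIP-seq over 5 genes that encode lens RNA-binding proteins, Tdrd7, Caprin2, Celf1, Rbm24 and Qk, out of 21938 protein-coding genes of the mouse annotation. The 5 genes were chosen by name, and for each of them all H3.3 islands were taken that overlapped the gene body (GENCODE vM21 on mm10, the mouse assembly GRCm38) or the 5 kb on either side by at least 1 bp. An island is a stretch of the genome in which the authors' peak caller found more ChIP reads than its background, and the gene body with its flanks is called the window below. The material was lens tissue of newborn CD1 mice, with no genetic change or treatment named in the labels, microdissected into lens epithelium (2 libraries) and lens fibers (2 libraries). The titles of the samples give day 1 after birth and the protocol gives day 0.5, with 150 lenses pooled per sample, so that each library averages over many animals. The published methods give another number of lenses, and the difference could not be settled from the labels. The authors named the 2 libraries of a compartment biological replicates. In such pooled tissue, a larger share of cells with H3.3 at a gene and more H3.3 per cell cannot be told apart.

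The lens grows by division of a sheet of epithelial cells at its front, whose daughters elongate into fibers, accumulate crystallins and then lose their nuclei and organelles. A fiber cell that loses its nucleus can no longer transcribe, and lens biology has therefore paid much attention to proteins that bind mRNA and set its splicing, stability, storage in granules and translation. H3.3 is a variant of histone H3 that cells deposit independently of DNA synthesis, at active promoters and enhancers and along the bodies of transcribed genes. Tdrd7 encodes a tudor domain protein of RNA granules whose loss causes cataract, and Caprin2 encodes another granule protein. Celf1 encodes a protein that binds GU-rich elements and acts on splicing, decay and translation of mRNA. Rbm24 encodes a protein with an RNA recognition motif that acts on splicing and mRNA stability, and Qk encodes Quaking, a KH domain protein that acts on splicing and mRNA stability.

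The libraries differed in size before any gene was considered. The epithelium libraries held 10389 islands (1331369 reads) in replicate 1 and 14434 islands (1430373 reads) in replicate 2. The fiber libraries held 27059 islands (5041885 reads) in replicate 1 and 35940 islands (5359085 reads) in replicate 2. Islands covered 45.4 and 48.9 Mb of the genome in epithelium and 178 and 188 Mb in fibers. How many reads were sequenced per library is unknown, so that no limit of detection can be given and the absence of an island means only that none was called. At least 1 island lay in the window of 30.4% and 35.4% of protein-coding genes in the epithelium libraries, and of 54.5% and 60.7% in the fiber libraries. For this reason the counts below are read against the same counts over all protein-coding genes or all regions.

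The labels were compared with marker genes of both compartments. All 8 fiber markers had a larger covered share of the window in both fiber libraries than in both epithelium libraries. Bfsp1, a beaded filament protein, was covered by 95.8% and 95.3% in fibers and had no island in epithelium, and Lim2, a fiber membrane protein, was covered in full in fibers and had no island in epithelium. The 5 genes listed as epithelial markers were Foxe3, Cdh1, Pdgfra, Pax6 and Cdh2. All 5 also had their larger covered share in fibers, and none had a higher value in both epithelium libraries. The difference was largest at Cdh2, with 0% and 0.781% in epithelium and 75.1% and 77.8% in fibers. Foxe3, a transcription factor of the lens epithelium, had no island in epithelium replicate 1 and was covered by 60.7% in epithelium replicate 2, against 88.5% and 86.6% in fibers. Pax6, a transcription factor of eye development, was covered by 79.7% and 79.5% in epithelium and by 93.2% and 89.1% in fibers. Since both marker lists had their larger cover in fibers, the islands of these genes did not set the labelled compartments apart.

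The markers of other tissues reported here had few or no islands. The blood genes Ptprc, Hbb-bt and Hbb-bs had no island in any library. Of 4 endothelial genes, Kdr and Tie1 had none, and the summed reads of the list, all in Pecam1 and Cdh5, were 103, 133, 532 and 375 in epithelium 1, epithelium 2, fiber 1 and fiber 2. Of the retinal genes, Crx had none, and Rcvrn had an island in fiber replicate 2 only, with 298 reads. The summed endothelial reads were higher in both fiber libraries, as were those of the lens lists. Those of the 4 retinal genes, 477, 143, 333 and 422 in the same order, were highest in epithelium replicate 1. The part of other tissues in the values below was not tested.

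All 5 genes carried islands over a larger share of their window in both fiber libraries than in either epithelium library. The lowest covered share in fibers was 33.8% and the highest in epithelium 13.3%. Across all protein-coding genes, both fiber libraries lay above both epithelium libraries at 45.0% of genes, and the reverse held at 0.670%. The share with fibers above was 69.8% among genes with an island in at least 1 library, and 52.1% among genes as long as the 5 genes (12662 to 117254 bp), a background chosen after the data had been seen. A fiber excess in direction was thus common. The median difference of the 5 genes was 74.2 percentage points, against a median of 4.72 over all protein-coding genes, 16.0 over genes with an island and 7.48 over genes of similar length. With 2 libraries against 2 there are 6 splits, and the exact two-sided permutation test gave p = 0.33 for each of the 5 genes, the smallest p that this design allows.

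**Figure D1:**
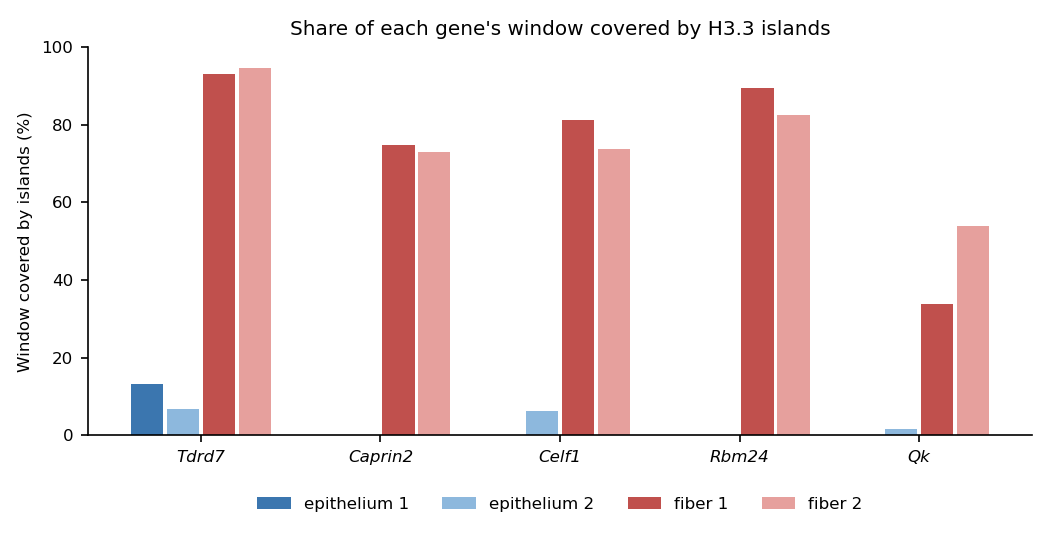
Bars give the percentage of each gene's window (gene body with 5 kb on each side) that islands covered in each library, on an axis from 0 to 100%. The fiber bars stand between 33.8% and 94.6%, the epithelium bars at 13.3% or less, and Caprin2 and Rbm24 have no epithelium bar.

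The 5 genes stood at different heights in this distribution. By the difference between compartments, Rbm24 and Tdrd7 both lay at percentile 99.8 of all protein-coding genes, Celf1 and Caprin2 both at percentile 99.2, and Qk at percentile 90.3. By the mean covered share in fibers they were ordered Tdrd7 (93.9% ± 1.07), Rbm24 (86.0% ± 4.99), Celf1 (77.4% ± 5.24), Caprin2 (73.9% ± 1.33) and Qk (43.8% ± 14.1, all SD, n = 2). The ranges of the 2 fiber libraries of Celf1 and Caprin2 overlapped, and those of Tdrd7 and Rbm24, Rbm24 and Celf1, and Caprin2 and Qk did not. In epithelium, 2 genes (Caprin2 and Rbm24) had no island in either library and islands in both fiber libraries. Over all protein-coding genes this pattern was found at 15.2%. A further 2 genes (Celf1 and Qk) had an island in epithelium replicate 2 only, and Tdrd7 alone had islands in both epithelium libraries.

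**Figure D2:**
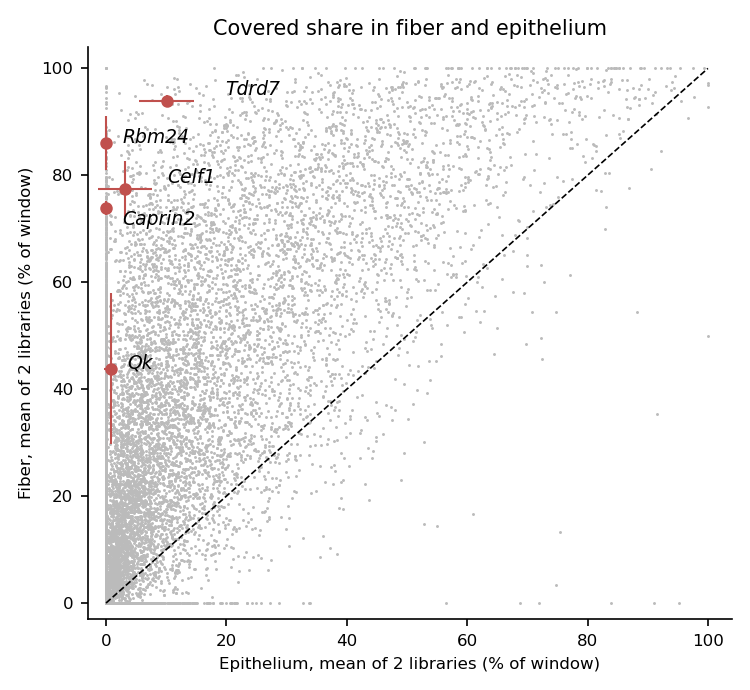
Each grey point is a protein-coding gene, with the mean covered percentage of its window in the 2 epithelium libraries on the horizontal axis and in the 2 fiber libraries on the vertical axis; red points are the 5 genes with the SD of 2 libraries, and the dashed line marks equal values. The 5 genes lie along the left edge, with epithelium means from 0% to 10.05% and fiber means from 43.8% to 93.9%.

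Tdrd7 (ENSMUSG00000035517.17) lies on the plus strand of chromosome 4 from 45965334 to 46034761 and was the gene most completely covered in fibers. Islands covered 13.3% and 6.80% of its window in the 2 epithelium libraries (replicate 1 first, as throughout) and 93.1% and 94.6% in the 2 fiber libraries. Both fiber libraries lay far above both epithelium libraries, with a difference of 83.8 points against SDs of 4.59 in epithelium and 1.07 in fibers. The covered length was 9.34 times as large in fibers. All annotated exons were covered in full in both fiber libraries, and introns by 97.3% and 98.2%. The longest fiber islands measured 43800 and 50800 bp, which placed them at percentiles 99.7 and 99.9 of island length in their own libraries. The longest epithelium islands measured 5000 and 2200 bp. In fibers the only break inside the gene was short and stood at nearly the same place in both libraries, between 49066 and 50067 bp from the gene start in replicate 1 and between 48866 and 50067 bp in replicate 2, apart from a gap of replicate 1 between 4466 and 5267 bp.

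The epithelium islands of Tdrd7 differed between replicates in where they lay. In epithelium replicate 1, an island of 4600 bp with 114 reads reached from -1933 to 2666 bp around the gene start and covered the distal transcript start. In epithelium replicate 2, no island lay there, and an island of 2200 bp with 59 reads from 6267 to 8466 bp covered the internal starts. Each epithelium library thus had islands at 2 of the 5 annotated transcript starts, not the same ones, and 1 start had no epithelium island, whereas both fiber libraries covered all 5. In the start with 2 kb on each side the groups overlapped, with 98.3% and 0% covered in epithelium and 83.3% and 98.3% in fibers. RefSeq places 3 start windows at the gene, and the sequences before the distal start (chr4:45965085-45965333) and before the first internal start (chr4:45972047-45972232) are shown because each was in an island of a different epithelium library. Capitals mark CG dinucleotides and the word TATAAA on either strand. Bases that belong to an exon of GENCODE or of a curated RefSeq transcript were left out.
Tdrd7 distal start: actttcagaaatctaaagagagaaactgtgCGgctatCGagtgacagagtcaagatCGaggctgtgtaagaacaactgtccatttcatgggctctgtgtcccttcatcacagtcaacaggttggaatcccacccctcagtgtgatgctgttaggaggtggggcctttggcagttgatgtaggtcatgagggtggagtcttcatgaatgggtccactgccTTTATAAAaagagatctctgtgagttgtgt
Tdrd7 internal start: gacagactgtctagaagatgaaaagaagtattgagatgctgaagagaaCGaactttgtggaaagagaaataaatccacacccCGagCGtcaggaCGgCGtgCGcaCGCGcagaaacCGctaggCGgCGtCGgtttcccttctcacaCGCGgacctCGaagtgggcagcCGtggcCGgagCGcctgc
Over the 300 bases of each RefSeq window, the distal start had 4 CG and a GC content of 48.3%, and the internal one had 32 CG and a GC content of 63.0%. The distal count exceeded that of 31.4% of the 32851 RefSeq start windows of mouse genes, and the internal count that of 90.5%. Counting back from the RefSeq start, TATAAA began in the distal window at position -29 and, in an overlapping match on the other strand, at -31, and was present on either strand in 13.6% of all windows. The internal window held no TATAAA.

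Past its end, the fiber islands of Tdrd7 ran on into the next gene. They reached 83466 and 85466 bp from the Tdrd7 start, while the gene is 69428 bp long. The neighbour Tmod1, which encodes tropomodulin 1, a protein that caps actin filaments and belongs to the membrane skeleton of lens fibers, begins at 46038935 on the same strand. The body of Tmod1 was covered by 2.98% and 3.67% in epithelium and by 54.9% and 61.6% in fibers. An epithelium island of 2200 bp with 68 reads also lay across the start of Tmod1 in replicate 1, so that the value of Tdrd7 in the downstream flank cannot be told apart from H3.3 at Tmod1. Within the gene body alone, Tdrd7 was covered by 9.41% ± 2.31 in epithelium and by 97.8% ± 0.611 in fibers (SD, n = 2).

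**Figure D3:**
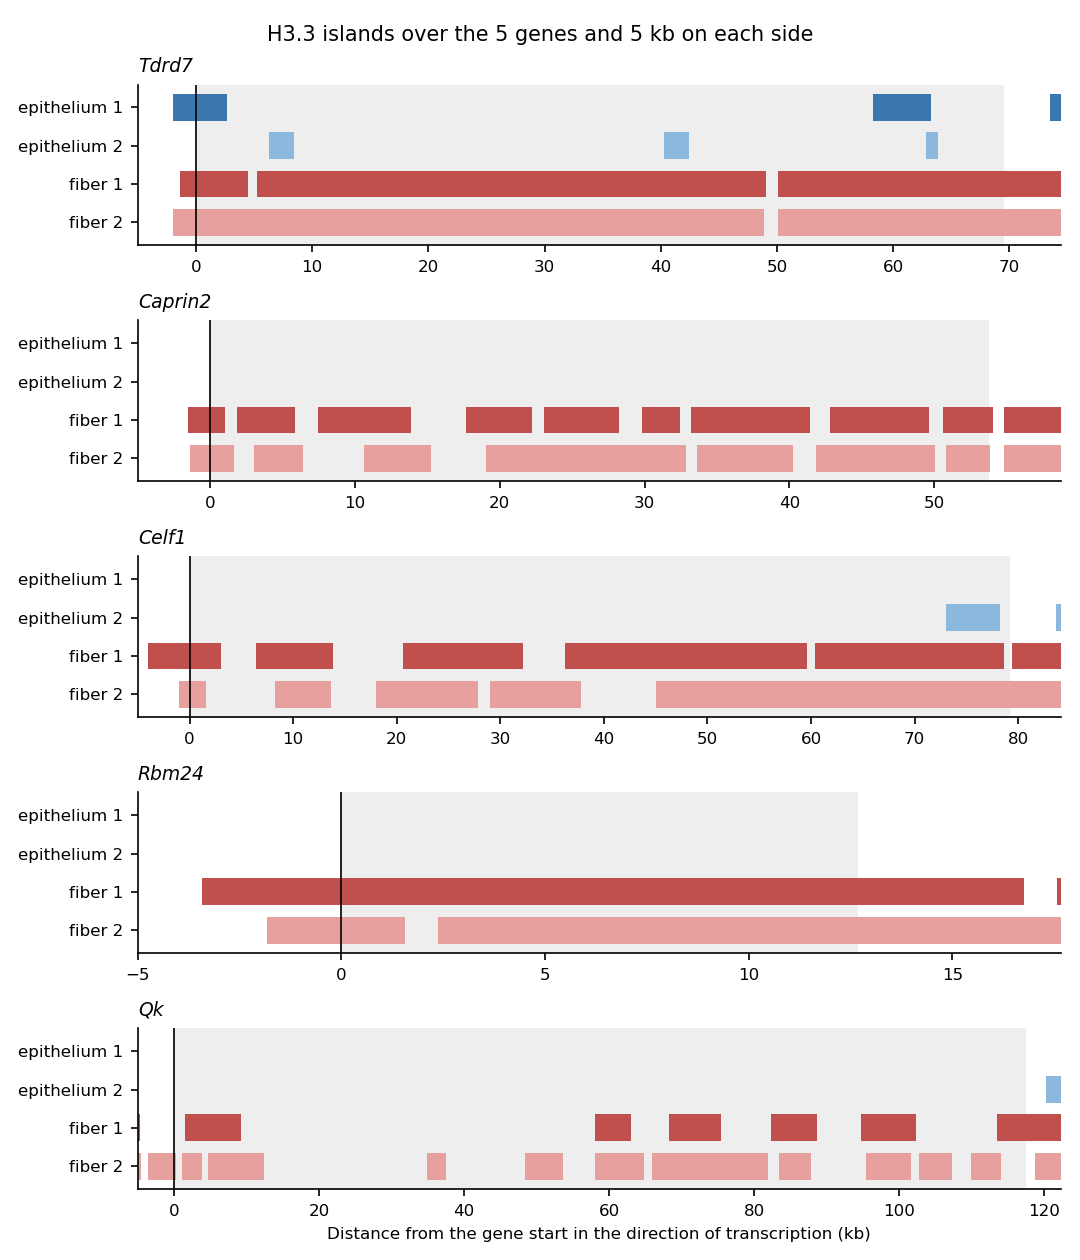
Each bar is an H3.3 island, drawn by library along the distance from the gene start in kb, with the gene body shaded and a vertical line at the gene start; islands are clipped at the ends of the window and each gene has its own horizontal scale. Fiber islands run along most of Tdrd7 and Rbm24 with few short gaps and are broken by more gaps in Caprin2, Celf1 and Qk, and the epithelium rows hold 9 islands against 58 in the fiber rows.

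Caprin2 (ENSMUSG00000030309.16) lies on the minus strand of chromosome 6 from 148842492 to 148896237. It had no island in either epithelium library, and islands covered 74.8% and 73.0% of its window in fiber replicates 1 and 2. The fiber libraries agreed closely in this total, with an SD of 1.33 points. The cover was made of many islands, 10 in replicate 1 and 8 in replicate 2, with the longest at 8200 and 13800 bp. All 11 annotated transcript starts lay in an island in both fiber libraries, and coding exons were covered by 88.7% and 90.7%. The densest fiber islands of the gene were those at its start, with 94 reads in 2600 bp in replicate 1 (36.2 reads per kb) and 117 reads in 3000 bp in replicate 2 (39.0 reads per kb), at percentiles 94.4 and 96.6 of density in their libraries. The 250 bases before this start (chr6:148896238-148896487, minus strand) are shown as the part of the gene with the most reads per kb.
Caprin2 start: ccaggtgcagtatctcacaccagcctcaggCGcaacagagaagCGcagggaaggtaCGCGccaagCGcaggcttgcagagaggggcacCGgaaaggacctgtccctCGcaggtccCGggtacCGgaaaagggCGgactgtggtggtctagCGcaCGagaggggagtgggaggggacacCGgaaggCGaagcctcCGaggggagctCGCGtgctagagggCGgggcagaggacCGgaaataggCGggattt
Its RefSeq window held 29 CG, more than 87.1% of all windows, and no TATAAA. The word GGGCGG, the core of a GC box, which overlaps CG, was found there 2 times on either strand and is present in 35.7% of all windows. Of the annotated neighbours in the upstream flank, Gm43908 and the pseudogene Gm7618 had no island in any library.

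Celf1 (ENSMUSG00000005506.16) lies on the plus strand of chromosome 2 from 90940382 to 91019497. Islands covered 0% and 6.39% of its window in epithelium and 81.1% and 73.7% in fibers. The difference of 74.2 points exceeded the SDs of 4.52 in epithelium and 5.24 in fibers. Both fiber libraries covered all coding exons in full and all 10 annotated transcript starts. Neither epithelium library had an island at any of these starts. The 5200 bp island of epithelium replicate 2 with 127 reads lay from 73019 to 78218 bp from the start, close to the end of the gene, and covered 61.6% of the exonic length and none of the coding exons or introns. A second epithelium island of 5000 bp with 129 reads began beyond the gene end, at 83619 bp.

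Along Celf1 the fiber cover was more complete towards the 3′ side. In the first of 10 equal parts of the gene body it was 57.03% and 20.5% in fiber replicates 1 and 2, and in parts 7 to 10 it was between 89.9% and 100% in both. Fiber replicate 2 had 1 island of 43600 bp with 1558 reads over this 3′ side, at percentile 99.8 of length and 92.1 of density in its library. Fiber replicate 1 had 3 islands there and past the gene end, of 23400, 18200 and 11600 bp. The sequence before the gene start (chr2:90940147-90940381) is shown because an island covered it in both fiber libraries and in no epithelium library.
Celf1 start: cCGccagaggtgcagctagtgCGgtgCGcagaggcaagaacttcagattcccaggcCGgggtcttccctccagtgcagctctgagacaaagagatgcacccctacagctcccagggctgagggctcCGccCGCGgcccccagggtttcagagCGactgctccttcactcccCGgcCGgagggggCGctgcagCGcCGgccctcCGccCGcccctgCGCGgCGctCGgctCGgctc
The Celf1 window held 34 CG, more than 92.3% of all windows, and 6 matches to GGGCGG on either strand.

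Rbm24 (ENSMUSG00000038132.6) is the shortest of the 5 genes at 12662 bp and lies on the plus strand of chromosome 13 from 46418434 to 46431095. No island was called in its window in either epithelium library, and islands covered 89.6% and 82.5% of the window in fiber replicates 1 and 2. The difference of 86.0 points was the largest of the 5 genes, with an SD of 4.99 in fibers. In fiber replicate 1 a single island of 20200 bp with 620 reads covered the whole gene from -3433 to 16766 bp. In fiber replicate 2 an island of 3400 bp with 98 reads covered the gene start, and after a gap to 2367 bp a second island of 19400 bp with 616 reads ran past the gene end. Of the 5 annotated transcript starts, 5 lay in an island in fiber replicate 1 and 2 in fiber replicate 2. The long islands had nearly equal counts in both replicates, and they stood at percentiles 97.4 and 98.4 of length in their libraries. The sequence before the RefSeq start (chr13:46418050-46418299) was in an island in both fiber libraries and in no epithelium library.
Rbm24 start: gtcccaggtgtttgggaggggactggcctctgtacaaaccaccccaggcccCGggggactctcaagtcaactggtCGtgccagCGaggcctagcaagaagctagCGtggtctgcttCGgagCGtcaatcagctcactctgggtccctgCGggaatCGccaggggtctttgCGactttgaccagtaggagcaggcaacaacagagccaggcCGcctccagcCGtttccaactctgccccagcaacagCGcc
The Rbm24 window held 18 CG, more than 70.3% of all windows, and had no match to TATAAA or GGGCGG.

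Qk (ENSMUSG00000062078.15) is the longest of the 5 genes at 117254 bp, lies on the minus strand of chromosome 17 from 10202601 to 10319854, and was the least covered in fibers. Its window was covered by 0% and 1.57% in epithelium and by 33.8% and 53.8% in fibers. The groups did not overlap, but the fiber libraries differed by more than for any other of the 5 genes, with an SD of 14.1 points beside a difference of 43.0 points. The gene body itself had no island in epithelium, since the island of epithelium replicate 2, of 3200 bp with 103 reads, lay beyond the gene end. Fiber replicates 1 and 2 had 7 and 13 islands in the window, the longest of 11600 and 16000 bp.

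Qk was also the only gene of the 5 whose start was not in an island in both fiber libraries. Fiber replicate 1 had no island at any of the 5 annotated transcript starts, and its first island inside the gene began at 1454 bp. Fiber replicate 2 had an island of 3800 bp with 94 reads from -3546 to 253 bp, which held 3 of the 5 starts. The RefSeq start window of Qk had the most CG of all windows of the 5 genes, 57, more than 99.8% of windows, and a GC content of 81.7%, and 0 and 11 of its 300 bases were in an island in the fiber libraries. How well such sequence can be sequenced and mapped was not tested. Coding exons were covered by 8.10% in fiber replicate 1 and by 74.4% in fiber replicate 2, so that these values rest on 1 library. Along the gene body, parts 2 to 4 of 10 were covered by 0% in replicate 1 and by 2.75% to 19.4% in replicate 2, whereas parts 6 to 9 were covered by 43.5% to 64.8% and by 37.5% to 98.1%. Upstream of Qk, the non-coding RNA gene 1700110C19Rik, on the other strand, was covered by 100% and 85.0% in fibers and had no island in epithelium.

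**Figure D4:**
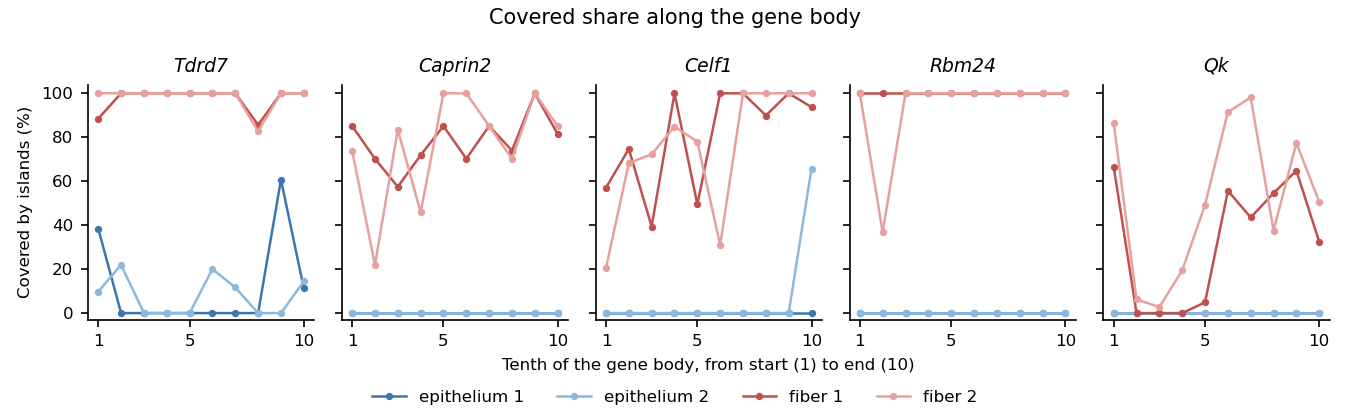
Lines give the percentage covered by islands in each of 10 equal parts of the gene body, from start to end, in the 4 libraries. In fibers Tdrd7 and Rbm24 stay at or near 100% except in single parts, Celf1 reaches 100% towards its end, and Qk falls to between 0% and 19.4% in parts 2 to 4.

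Merging the islands of all 4 libraries gave 25 regions in the 5 windows. Of these, 21 had islands in fibers only, 4 were shared by the compartments, and 0 had islands in epithelium only. Over the 38396 merged regions of the genome the shares were 63.6%, 26.7% and 9.69%, so that regions with fiber islands only were the most frequent class throughout. Both fiber libraries contributed to 21 of the 25 regions, and to 50.6% of all regions. The 4 regions found in a single fiber library were all in Qk and came from fiber replicate 2. Caprin2 had 8 regions and Rbm24 had 1, all without epithelium islands, while both regions of Tdrd7 were shared.

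The longest island of the window was longer in both fiber libraries than in both epithelium libraries at 5 of 5 genes, and at 44.2% of all protein-coding genes. Reads per kb exist only where an island was called, so that 4 of the 5 genes allowed no full comparison by this measure. Counting the islands of a gene together, Tdrd7 had 26.3 and 29.6 reads per kb of island in epithelium and 30.8 and 31.4 in fibers. Tdrd7 was the only gene of the 5 with an island in all libraries, and fibers lay above epithelium by a small margin. Over the 5246 genes with islands in all 4 libraries, fibers were above at 30.8%. After division by each library's reads in islands, the values of Tdrd7 were higher in epithelium. That scaling lowers all fiber values alike, and the unscaled values depend on an unknown depth, so neither decides the order at Tdrd7. With division by each library's median reads per kb, both fiber libraries stayed above both epithelium libraries at Tdrd7. In Celf1 the values were 25.1 reads per kb in epithelium replicate 2 against 29.8 and 32.6 in fibers, and in Qk they were 32.2 in epithelium replicate 2 against 25.3 and 24.2 in fibers. Among fibers, Qk had the lowest reads per kb of the 5 genes in both libraries, and Caprin2 followed with 27.2 and 26.7. The median over all islands of a library was 28.3, 28.1, 27.4 and 27.5 reads per kb in epithelium 1, epithelium 2, fiber 1 and fiber 2, and the pooled fiber values of Qk and Caprin2 lay below the median of their library, those of the other genes above it. Single islands did not follow this order, since the Caprin2 islands at the start were among the densest and the first Celf1 island of fiber replicate 1 had 23.9 reads per kb.

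Because fibers had more islands in all, the windows were measured again with equally long lists of 10389 islands per library. When the islands with the most reads per kb were kept, 4 of the 5 genes still had both fiber libraries above both epithelium libraries, as did 15.6% of all protein-coding genes, while the reverse held at 4.84%. Tdrd7 kept all of its islands in all libraries. Celf1 was then covered by 34.0% and 52.8% in fibers, Rbm24 by 89.1% and 67.5%, and Caprin2 by 29.7% and 4.71%, with no epithelium island at any of these genes. In Qk the groups then overlapped, with 0% and 1.57% in epithelium and 0.1996% and 0% in fibers, a difference of -0.686 points. When the islands with the most reads were kept, 5 of 5 genes had fibers above, as did 21.4% of all protein-coding genes, while the reverse held at 3.08%. The median difference of the 5 genes was 43.4 points in the former case and 72.8 points in the latter, and that of all protein-coding genes was 0 in both.

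Start windows gave a view that does not depend on gene length. Taking 1 RefSeq window per gene for 27025 genes, 10.96% and 12.97% touched an island in the epithelium libraries, against 31.2% and 35.6% in the fiber libraries. Windows with at least 7 CG, the median over all windows, did so in 17.5%, 20.9%, 50.1% and 57.4% of cases in the same order. All 5 genes matched a RefSeq window by symbol, with 3 windows for Tdrd7 and 1 for each other gene. The 6 windows of Tdrd7, Caprin2, Celf1 and Rbm24 were covered in full in both fiber libraries. The shares above count windows touched by an island in each library, and the share covered in full was not computed. TGCTGA, a core word of the recognition element of Maf factors and free of overlap with the other words, was found on either strand in 1 of the Tdrd7 windows and in the Qk window, and is present in 19.5% of all windows.

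Islands and gaps were also compared for repeats, the bases in lower case in the reference assembly. In fiber replicate 1, repeats made up 18.7% of the covered bases of Tdrd7 and 35.3% of the uncovered ones, and in fiber replicate 2 they made up 18.7% and 40.6%. In Celf1 the values were 31.6% and 43.0% in fiber replicate 1, and 31.6% and 39.7% in fiber replicate 2. Caprin2 had 35.3% against 41.1% and 34.1% against 44.0% in the same order. Gaps in the fiber cover of these 3 genes were thus richer in repeats in both libraries, while Rbm24 had 18.4% against 19.2% and 18.6% against 17.9%, and Qk had 26.7% against 26.3% and 25.6% against 27.5%. The part of repeats in the placing of islands was not tested.

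The protein-coding genes most like each of the 5 genes were found by the distance between their covered percentages in the 4 libraries, among genes of 0.5 to 2 times the length. For Tdrd7 these were Arid3b, a DNA-binding protein (11.7%, 10.6%, 89.4% and 90.8% in epithelium 1, epithelium 2, fiber 1 and fiber 2), and Cars, a tRNA synthetase for cysteine (11.4%, 4.92%, 89.2% and 88.1%). For Caprin2 they were Sesn3, a stress-response protein (0%, 2.65%, 79.5% and 74.2%), and Synm, an intermediate filament protein (0%, 0%, 77.4% and 78.4%). Sesn3 was also the nearest gene to Celf1, followed by Vit, an extracellular matrix protein (0%, 1.86%, 86.9% and 71.9%). Nearest to Rbm24 were Med8, a subunit of the Mediator complex, and Ing2, a chromatin reader, both with no epithelium island and with fiber values between 85.0% and 86.3%. For Qk they were Tpd52 (0%, 2.03%, 32.3% and 49.6%) and Slc16a12, a transporter linked to cataract (0%, 3.38%, 33.8% and 49.5%). Distances ranged from 4.11 to 8.06 percentage points over the 4 libraries, so that none of these patterns was held by 1 of the 5 genes alone.

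A list of 57 other genes gave the context, made of regulators of RNA in 3 groups and of 8 genes whose mRNAs are targets of such proteins. Both fiber libraries lay above both epithelium libraries at 42 of them (45.0% of all protein-coding genes, and 69.8% of those with an island), both epithelium libraries above both fiber libraries at 0, and the groups overlapped at 15, of which 5 had no island in any library. The median difference over all 57 genes was 16.3 points, against 4.72 over all protein-coding genes and 16.0 over those with an island. The 22 genes of RNA granules and mRNA stability or translation had fibers above at 19, with a median of 37.5 points. Of 11 splicing regulators 8 had fibers above, with a median of 21.6 points. Of 16 genes from the same protein families as the 5 genes 9 had fibers above, with a median of 6.23 points. With the same number of the densest islands from each library, 22 of the 57 genes had fibers above, beside 15.6% of all protein-coding genes.

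Among the granule and stability genes, G3bp1, which encodes a core protein of stress granules, was covered by 5.76% and 5.32% in epithelium and by 86.4% and 85.0% in fibers. Pabpc1, the cytoplasmic poly(A)-binding protein, had no island in epithelium and was covered by 80.6% and 75.6% in fibers. In both genes the fiber values lay between 75.6% and 86.4%, far above the epithelium values. Stau2 and Fmr1 of the same group had no island in any library, and Fxr1 had an island in fiber replicate 2 only.

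The closest relatives of the 5 genes differed from them and from each other. Caprin1, the paralog of Caprin2, was covered by 4.03% and 12.5% in epithelium and by 60.8% and 64.9% in fibers. Rbm38, the paralog of Rbm24, was covered by 26.0% and 28.5% in epithelium and by 100% and 88.7% in fibers. Unlike Rbm24, Rbm38 thus had islands in both epithelium libraries. The other tudor domain genes had little cover, with fiber values of 16.0% and 21.6% at Tdrd6 and below these at Tdrd1, Tdrd3, Tdrd9 and Tdrd12, and Tdrd5 had no island. Celf2, a gene of 969870 bp, was covered by 1.43% and 3.57% in fibers, and Celf5 had overlapping groups (33.2% and 0% in epithelium, 27.2% and 19.4% in fibers). Of the relatives of Qk, Khdrbs1 had overlapping groups (15.9% and 10.3% in epithelium, 9.77% and 21.6% in fibers), Khdrbs2 had no island, and Khdrbs3 had an island in fiber replicate 2 only.

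**Figure D5:**
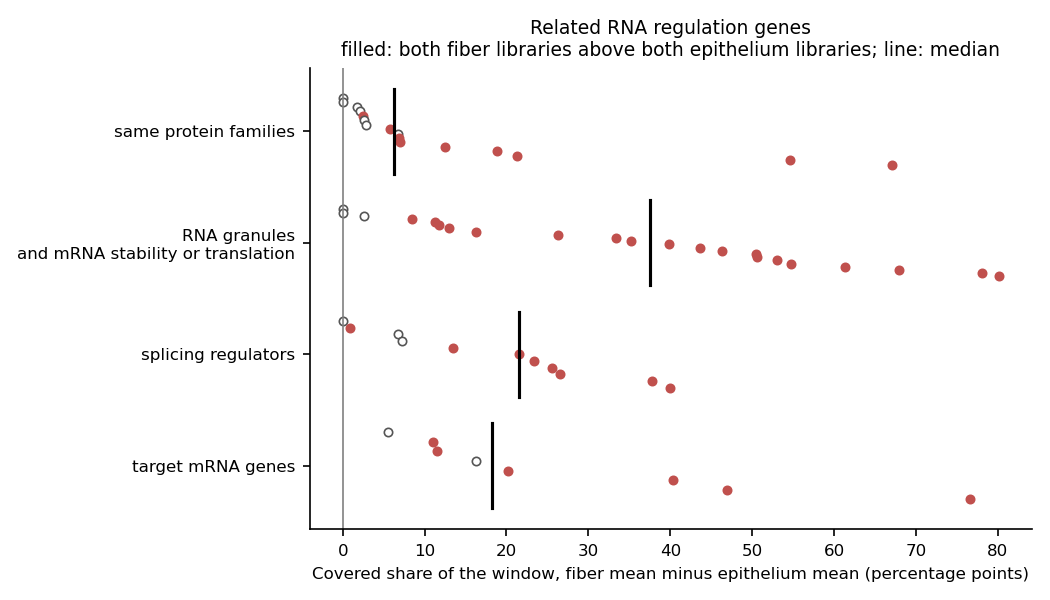
Each point is 1 of 57 genes, regulators of RNA in 3 groups and target mRNA genes, placed by the mean covered share in fibers minus that in epithelium (percentage points), filled where both fiber libraries lie above both epithelium libraries; a vertical line marks the median of the group. Medians are 6.23 points in the same protein families, 37.5 in RNA granules and mRNA stability or translation, 21.6 in splicing regulators and 18.2 in target mRNA genes.

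The list held 8 genes whose mRNAs are known as targets of these proteins in the lens or other tissues. Of these, 6 had fibers above (75%), with a median of 18.2 points. All 8 had an island in at least 1 library. Among all protein-coding genes with an island, fibers were above at 69.8%, near the share of the targets, with a median of 16.0 points. Prox1, a transcription factor of fiber elongation, was covered by 17.9% and 27.6% in epithelium and by 98.7% and 100% in fibers. Cdkn1b, an inhibitor of the cell cycle, was covered by 0% and 17.2% in epithelium and by 63.5% and 47.6% in fibers. Sox2, a transcription factor of early lens development, was covered by 0% and 33.2% in epithelium and by 56.9% in both fiber libraries. Crybb3, a β-crystallin, was covered by 70.9% and 88.8% in epithelium and in full in fibers. Pax6 had the values given among the markers. Dnase2b, the nuclease that degrades DNA of fiber nuclei, had no island in epithelium and was covered by only 12.1% and 9.86% in fibers. The groups overlapped at Cdkn1a, another inhibitor of the cell cycle, with 24.3% and 21.3% in epithelium and 34.4% and 22.3% in fibers. They also overlapped at Hspb1, a small heat shock protein, which had an island in fiber replicate 2 only.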

How the data were processed

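The 5 genes and all gene lists were chosen with earlier results of these data known. The authors aligned single-end reads to mm10 with BWA and called islands library by library with SICER2 (window 200 bp, gap 600 bp, false discovery rate 0.01). The deposited lists give the count of reads in each island, not normalized. Total reads per library are not given in the sources used here. The title of the input calls it a control, and whether the peak caller used it is not stated. Starts were read as counting from 0 and ends as inclusive, and positions are printed counting from 1. Count tests were not run, because a region without an island has no count. The covered share of the window, the longest island and reads per kb of island were computed in Python 3.11.15 with numpy 2.4.6 for every protein-coding gene of GENCODE vM21, and drawn with matplotlib 3.10.9. Compartments were compared by exact two-sided permutation tests (scipy 1.17.1) and by whether the libraries overlapped. The steps were tested on simulated data. Start windows (250 bases before to 50 after) came from RefSeq (GRCm38.p6). Named genes were the 5 genes, markers, targets, neighbours in a window, up to 4 related genes with the largest non-overlapping difference, and the 2 most alike genes of each; the paralogs and genes without islands were named after their values were seen, and a few listed genes are not reported here. Alternatives changed the window, the islands and the libraries used. Neither the 12 bisulfite samples nor the input was analysed here.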

Additional observations from a re-analysis of the deposited data

How the results depend on the processing

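Across 14 alternatives each, the difference in covered share stayed above 0 at Tdrd7 (41.7 to 92.6 points), Caprin2 (17.2 to 79.2), Celf1 (43.4 to 82.5) and Rbm24 (71.9 to 96.8), and at Qk in 13 of 14 (up to 53.0 points). Qk reversed to -0.686 points with equally long lists of islands by reads per kb and fell to 0.593 points, with overlapping groups, with islands at or above the median reads per kb. Tdrd7 had overlapping groups with the start and 2 kb on each side. Each of these 3 alternatives left 4 of 5 genes with fibers above. The median of the 5 genes, 74.2 points, moved to 69.3 with 10 kb flanks, 56.6 with islands at or above their library's median reads per kb, 43.4 with the same number of islands by reads per kb and 79.2 with islands within 1 kb merged. Leaving out each library gave 73.0 to 77.9 points. The number of genes with fibers above in reads per kb, 1, fell to 0 with islands of at least the median reads per kb. After division by the library's median it stayed at 1. After division by the library's reads in islands it was 0. This scaling lowers all fiber values alike, and the unscaled values depend on an unknown depth, so neither decides the order at Tdrd7. Leaving out each library gave 1 to 2 genes, with 2 of 3 without epithelium replicate 1. With the start and 2 kb on each side, and with equal numbers of islands by reads, no gene had islands in all 4 libraries. Among the related genes, 22 instead of 42 had fibers above with the same number of islands by reads per kb, and 43 to 49 after leaving out a library. Whether libraries with the same replicate number came from the same lenses is not stated in the labels. Their deviations had a correlation of 0.00635 over 14147 genes, which cannot decide this. A replicate block, which cannot move the mean difference of 74.2 points in this design, had fibers above in both pairs at 5 genes. The causes of these changes were not tested. Unknown depth and 2 libraries per compartment limit all values, and a gene without an island cannot be called free of H3.3.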
